A study of Mus musculus with 12 samples.

Results

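The genes described here are 10 members of 2 gene families of the immune cell surface, 7 Ms4a genes (Ms4a7, Ms4a4a, Ms4a6c, Ms4a6d, Ms4a6b, Ms4a4b and Ms4a4c) and 3 Adgre genes (Adgre1, Adgre4 and Adgre5). They are 10 of the 17920 genes listed for every library. They were selected by name with earlier results of these data in view, and those results compared LPS with control, so that comparison describes the genes and does not test them. The libraries come from lung tissue of male BALB/c mice aged 6 to 8 weeks, 1 library of polyadenylated RNA per mouse. The study held 24 mice in 4 groups of 6, and 3 mice of each group were sequenced after 14 days. The groups were an untreated control, LPS (lipopolysaccharide, the bacterial endotoxin, which inflames the lung) in a volume of 50 µL at 1 µg/µL, bLF (bovine lactoferrin, a milk protein that binds iron) at 200 mg/kg/day, and LPS+bLF, which received both. The labels give neither the route nor the day of LPS.

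Ms4a genes encode small membrane proteins that cross the membrane several times and sit beside immune receptors; the family is named after Ms4a1, the B cell antigen CD20, and Ms4a2, a chain of the high-affinity IgE receptor. Ms4a7, Ms4a4a, Ms4a6c and Ms4a6d are mostly found in monocytes and macrophages, whereas Ms4a4b is best known from T and NK cells. Adgre genes encode adhesion G protein-coupled receptors with a long extracellular region of EGF-like repeats: Adgre1 is F4/80, the classical surface marker of mouse macrophages, Adgre4 is a receptor of myeloid cells, and Adgre5 is CD97, a receptor of leukocytes and some tissue cells that binds CD55, Thy1 and integrins.

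In GRCm38 coordinates from the RefSeq gene table, the 7 Ms4a genes lie within 283.8 kb of chromosome 19, from 11321039 to 11604804, an interval with 9 protein-coding genes. From left to right they are Ms4a7 (11321039 to 11336146, minus strand), Ms4a4a (11375488 to 11392915, plus), Ms4a4c (11404717 to 11427246, plus), Ms4a4b (11443558 to 11463549, plus), Ms4a6c (11469353 to 11487182, plus), Ms4a6b (11518559 to 11530403, plus) and Ms4a6d (11586606 to 11604804, minus). The Adgre genes are apart from them and, for Adgre5, from each other: Adgre4 (55749984 to 55853662, plus) and Adgre1 (57358581 to 57483529, plus) are on chromosome 17, and Adgre5 (83723245 to 83741311, minus) is on chromosome 8.

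Several of these genes are close copies. Coding sequences of the GENCODE M21 annotation were identical at 91.7% of aligned columns between Ms4a4b and Ms4a4c, at 84.8% between Ms4a6b and Ms4a6c, at 80.1% between Ms4a6b and Ms4a6d and at 76.1% between Ms4a6c and Ms4a6d. Ms4a7 shared 46.6% to 52.5% with the other 6, and the 3 Adgre genes shared 42.6% to 50.7% with each other. The likeness of the Ms4a6 pair extends into the DNA before the start. The 250 bases upstream of the start in the RefSeq promoter table (GRCm38.p6, 5′ to 3′ on the gene's strand) are shown for both because their levels over all 12 libraries parted (described further on). That parting rests largely on 1 library, LPS replicate 1. Pearson's r of their log2 levels was 0.04 with this library and 0.672 without it. The windows themselves are as follows. They are chr19:11518309-11518558 for Ms4a6b and chr19:11469118-11469367 for Ms4a6c, both on the plus strand. The promoter table places the start of Ms4a6c inside the gene span given above, so the last bases of that window lie within the span, and distances here count from the end of each window. Capitals mark matches to the motifs searched, which were AGGAAGT and its longer form GAGGAAGT (the motif of PU.1, the factor encoded by Spi1 in myeloid and B cells), TTNNNCAA (C/EBP factors) and TGANTCA (AP-1), on both strands.
Ms4a6b upstream: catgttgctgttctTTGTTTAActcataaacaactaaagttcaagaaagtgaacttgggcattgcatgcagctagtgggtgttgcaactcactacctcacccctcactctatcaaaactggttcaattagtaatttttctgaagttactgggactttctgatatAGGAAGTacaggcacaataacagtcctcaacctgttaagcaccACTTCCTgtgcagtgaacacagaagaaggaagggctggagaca
Ms4a6c upstream: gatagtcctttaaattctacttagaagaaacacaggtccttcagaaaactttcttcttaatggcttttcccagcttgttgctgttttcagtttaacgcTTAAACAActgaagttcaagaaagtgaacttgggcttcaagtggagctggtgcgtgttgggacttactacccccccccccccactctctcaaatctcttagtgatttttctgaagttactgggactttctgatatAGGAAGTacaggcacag

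Both windows hold AGGAAGT inside a run of 48 identical bases. This run begins 118 bases before the start of Ms4a6b and 49 bases before that of Ms4a6c, so the same bases lie at different distances from the 2 starts of that table.
Shared run: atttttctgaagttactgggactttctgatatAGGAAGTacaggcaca

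Ms4a6b has another match to AGGAAGT on the opposite strand, which begins 43 bases before its start. AGGAAGT occurred in 7.69% of all 32851 promoter windows of this length, GAGGAAGT in 2.44%, TTNNNCAA in 33.3% and TGANTCA in 6.75%. The longer GAGGAAGT matched in none of the members' windows. These matches describe letters in a window and are not evidence of binding.

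Of the 10 genes, 7 had an entry in the promoter table; Ms4a6d, Adgre1 and Adgre5 had none. Ms4a7, the gene with the clearest pattern in these libraries, had 2 starts, and the window of its outer start (chr19:11336147-11336396, minus strand, given as its reverse complement) is shown with its 2 matches to TTNNNCAA in capitals. The window of its inner start held the only TGANTCA among the members' windows.
Ms4a7 upstream: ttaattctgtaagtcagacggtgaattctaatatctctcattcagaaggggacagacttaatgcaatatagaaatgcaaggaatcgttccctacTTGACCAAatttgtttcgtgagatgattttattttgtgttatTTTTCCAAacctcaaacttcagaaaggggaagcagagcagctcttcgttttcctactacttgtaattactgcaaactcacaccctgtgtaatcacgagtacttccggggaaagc

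The windows of Ms4a4b (chr19:11443308-11443557, plus) and Ms4a4c (chr19:11407411-11407660, plus, within an intron of another Ms4a4c transcript) are shown because these 2 genes varied together over the 12 libraries. Pearson's r was 0.823, and 0.603 without LPS replicate 1, below the 0.672 of Ms4a6b and Ms4a6c without it. The 2 windows were identical at 68.8% of 269 aligned columns, and neither held AGGAAGT, GAGGAAGT or TGANTCA.
Ms4a4b upstream: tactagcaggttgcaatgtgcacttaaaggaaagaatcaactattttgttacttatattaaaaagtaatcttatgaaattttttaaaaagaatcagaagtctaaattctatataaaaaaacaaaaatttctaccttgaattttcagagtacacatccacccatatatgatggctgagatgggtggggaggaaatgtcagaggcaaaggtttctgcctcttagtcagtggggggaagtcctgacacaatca
Ms4a4c upstream: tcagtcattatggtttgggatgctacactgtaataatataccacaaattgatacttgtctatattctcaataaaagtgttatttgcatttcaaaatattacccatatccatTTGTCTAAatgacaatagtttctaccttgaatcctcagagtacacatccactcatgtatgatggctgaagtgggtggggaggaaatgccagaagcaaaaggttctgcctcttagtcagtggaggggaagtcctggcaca

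Total counts per library ranged from 16714327 to 17820645, and a gene at 0 could have stood as high as 0.168 to 0.179 CPM, the value of 3 counts (counting error only). LPS replicate 1 stood apart from the rest. It listed 3067 genes at 0 against 1499 to 1963 in the other libraries, and 124 of its genes at 0 had at least 10 counts in each of the other 11 libraries, which was so for 0 to 2 genes elsewhere. It also had the lowest summed level of the T cell (56.52 FPKM), NK cell (25.62), B cell (46.59) and dendritic cell (22.76) marker lists. The same held for the monocyte and macrophage (855.2), eosinophil (0.45), interferon-stimulated gene (60.69) and lung epithelium and endothelium (121600) lists. The list of fat, heart, skeletal muscle and squamous markers was lowest there too (4.21). Its neutrophil (1579), alveolar macrophage (728.5), non-classical monocyte (791.4) and other Ms4a family (2002) lists were the highest of the 12 libraries. The sum of the other Ms4a family was almost all Tmem176b (1063.57 FPKM) and Tmem176a (926.58). Of the 10 genes in that list 5 were at 0 there, and Ms4a4d (4.01) was at its lowest. FPKM is the number of fragments per unit of gene length and of library size. LPS+bLF replicate 3 had 51 genes with at least 10 counts that were at 0 in the other 11 libraries. Fold changes that use LPS replicate 1 are therefore given with and without it. In whole-tissue RNA, fewer cells of a type and less RNA per cell cannot be told apart. The lung epithelium and endothelium list, with Scgb1a1, the surfactant gene Sftpc and the endothelial gene Pecam1 among its members, was the most abundant of the lists in every group. Scgb1a1 alone stood at 1056141.44 FPKM in control replicate 2, where the list summed to 1158000, and at 68088.51 in LPS replicate 1. It took 4106263 of 17249537 counts in the former and 281206 of 16714327 in the latter. The part of this in the FPKM of other genes was not tested.

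Of the 10 genes, 9 reached 0.5 FPKM in at least 3 libraries and were tested; Adgre4 did not. The question put to them was whether they differed between mice with and without LPS when both received bLF, since LPS+bLF versus bLF is the comparison that shares no library with LPS versus control. In edgeR's quasi-likelihood test 0 of the 9 were called at an adjusted p under 0.05, with 0% of the 13735 tested genes called. At an unadjusted p under 0.05 there was 1 of 9, Ms4a7, against 2.66% of all tested genes. These counts were 2 of 9 members and 850 genes (366 with all libraries) without LPS replicate 1, and 3 of 9 and 928 genes in a fit of only the bLF and LPS+bLF libraries. They were 2 of 9 and 162 genes without bLF replicate 3, and 1 of 9 and 234 genes without LPS+bLF replicate 2. DESeq2 called 0 of the 9 members and 2 of the 13735 genes, with 1 member and 453 genes at an unadjusted p under 0.05.

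Ms4a7 was the macrophage gene of the cluster whose groups separated best. Its FPKM was 1.14, 1.33 and 1.77 in control, 5.31, 6.6 and 7.61 in LPS, 1.64, 0.94 and 1.34 in bLF, and 2.78, 2.55 and 3.61 in LPS+bLF. Every LPS library was above every other library, and every LPS+bLF library was above every control and bLF library. Its level was 2.32-fold higher in LPS+bLF than in bLF, a log2 fold change of 1.21 ± 0.298 (SE, 3 libraries per group), higher in 3 of 3 libraries (edgeR adjusted p = 1). Over the alternatives this log2 value ranged from 0.79 to 1.39 and its adjusted p from 0.225 to 1. In LPS versus control the log2 fold change was 2.25 ± 0.303, and it was 2.28 ± 0.305 without LPS replicate 1. The value for LPS+bLF versus LPS was −1.13 ± 0.29, and −1.15 ± 0.296 without that library. The effect of LPS in bLF-treated mice minus that in mice without bLF was −1.04 ± 0.417 on the log2 scale.

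Adgre1, which encodes F4/80, was likewise highest in LPS. It measured 0.86, 1.21 and 1.78 FPKM in control, 3.23, 3.8 and 5.12 in LPS, 1.98, 1.28 and 1.59 in bLF, and 2.64, 2.57 and 1.86 in LPS+bLF. The LPS libraries were again above all others, while LPS+bLF overlapped bLF through its replicate 3. Between LPS+bLF and bLF the log2 fold change was 0.58 ± 0.295 (edgeR adjusted p = 1). It was 1.68 ± 0.3 in LPS versus control, 1.73 ± 0.317 without LPS replicate 1, and −0.78 ± 0.292 in LPS+bLF versus LPS, or −0.82 ± 0.313 without it. Mean levels of Ms4a7 and Adgre1 lay within 1 SD of each other in control (1.41 ± 0.323 and 1.28 ± 0.464 FPKM, SD, n = 3), whereas the LPS libraries of Ms4a7 (6.51 ± 1.15) were all above those of Adgre1 (4.05 ± 0.969).

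**Figure D1:**
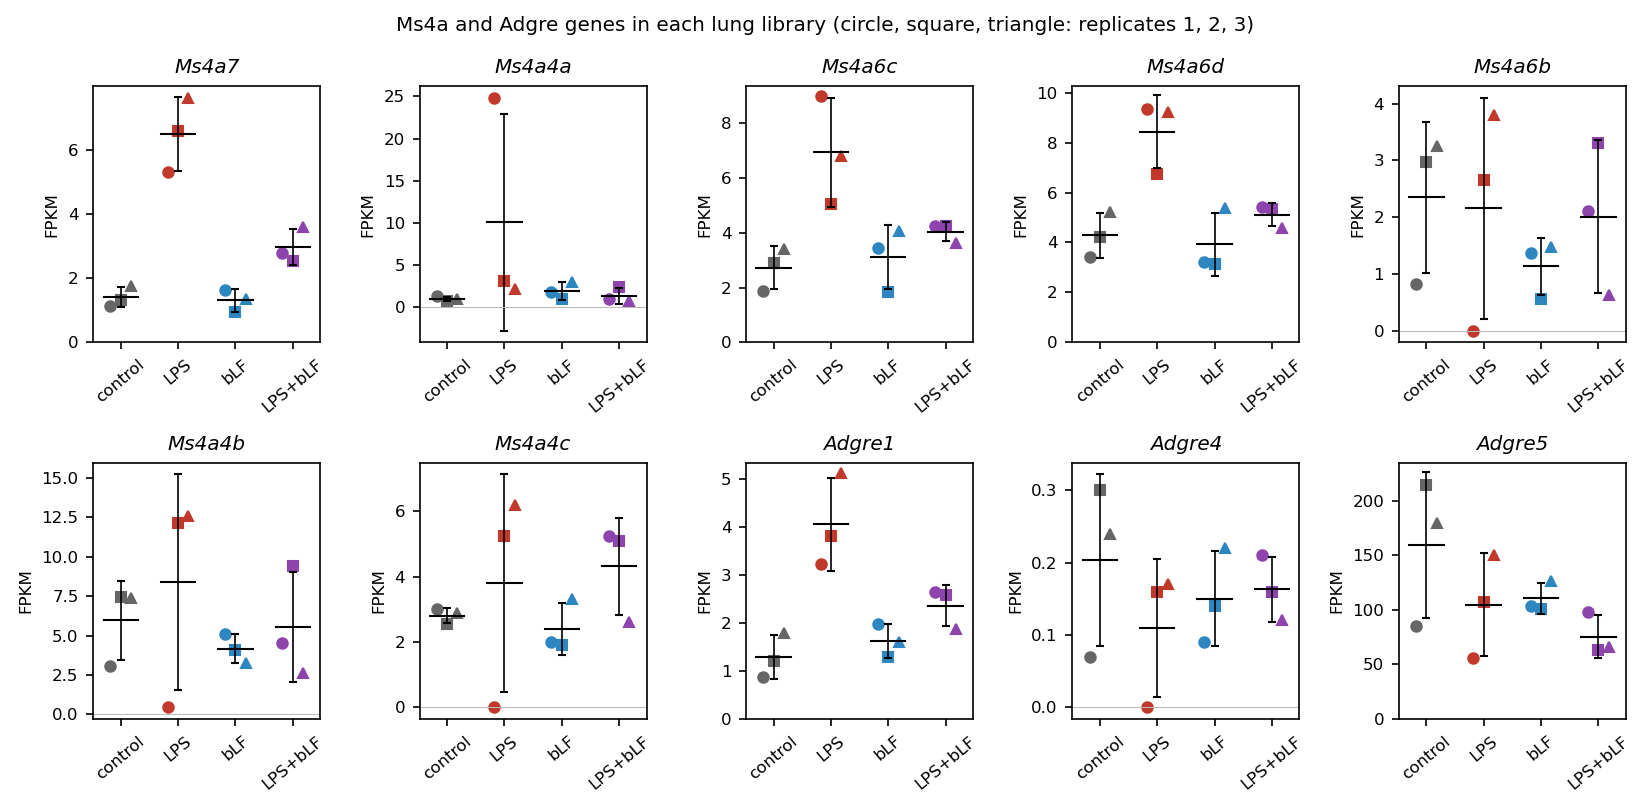
FPKM of each of the 10 genes (y axes from 0 or just below, scale differs by panel) in the 12 lung libraries; symbols are replicates, the horizontal line is the group mean and the bar its SD (n = 3). Ms4a7 and Adgre1 are highest in the 3 LPS libraries, and LPS replicate 1 (red circle) is at 24.86 FPKM for Ms4a4a but at 0 for Ms4a6b, Ms4a4c and Adgre4.

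Ms4a6d and Ms4a6c, both expressed in monocytes and macrophages, were higher in LPS by a smaller factor. Ms4a6d measured 3.42, 4.21 and 5.23 FPKM in control, 9.36, 6.75 and 9.21 in LPS, 3.23, 3.14 and 5.39 in bLF, and 5.43, 5.35 and 4.58 in LPS+bLF. Every LPS library exceeded the other 9, and the remaining groups overlapped. Its log2 fold change was 1.06 ± 0.307 in LPS versus control (0.85 ± 0.305 without LPS replicate 1), −0.76 ± 0.304 in LPS+bLF versus LPS (−0.55 ± 0.305 without it) and 0.41 ± 0.306 in LPS+bLF versus bLF (edgeR adjusted p = 1).

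Ms4a6c measured 1.86, 2.90 and 3.40 FPKM in control, 9.01, 5.04 and 6.80 in LPS, 3.44, 1.83 and 4.08 in bLF, and 4.24, 4.26 and 3.64 in LPS+bLF. The 3 LPS libraries were the highest by FPKM. The counts behind them gave another order: 108, 89 and 134 in LPS against 93, 75 and 49.38 in LPS+bLF, which overlap. The gene length implied by count and FPKM was 717.2 bases in LPS replicate 1 and 762.2 in LPS+bLF replicate 3, but 999.1 to 1231 in the other 10 libraries, so part of the FPKM difference for Ms4a6c lies in the length assigned to its transcripts. On counts, edgeR gave a log2 fold change of 1.22 ± 0.379 in LPS versus control (1.10 ± 0.403 without LPS replicate 1), −0.67 ± 0.373 in LPS+bLF versus LPS (−0.55 ± 0.401 without it) and 0.28 ± 0.375 in LPS+bLF versus bLF (edgeR adjusted p = 1). In addition, 51.3% of the 100-base stretches of Ms4a6c transcripts lie, on the opposite strand, in transcripts of BE692007, a long noncoding RNA. Strand use in the counting was not given in the sources used here. Reads from these shared stretches therefore cannot be told apart between the 2 genes.

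Ms4a4a, a macrophage gene, had its high value in 1 library. It measured 1.26, 0.69 and 0.90 FPKM in control, 24.86, 3.08 and 2.17 in LPS, 1.84, 0.91 and 2.99 in bLF, and 0.90, 2.42 and 0.67 in LPS+bLF. LPS replicate 1, with 322 counts, was far above the other LPS libraries, with 40 and 29. All 3 LPS libraries were still above the control libraries, but the other 2 overlapped both bLF and LPS+bLF. The log2 fold change in LPS versus control was 3.64 ± 1.01 with all libraries and 1.41 ± 0.62 without LPS replicate 1, and in LPS+bLF versus LPS it was −3.08 ± 0.981 and −0.86 ± 0.61. The value for LPS+bLF versus bLF was −0.49 ± 0.953 (edgeR adjusted p = 1), and its sign turned without bLF replicate 3, to 0.02.

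In the same library 3 other genes of the cluster, Ms4a6b, Ms4a4b and Ms4a4c, were at or near 0. Ms4a6b, a close copy of Ms4a6c, measured 0.82, 2.97 and 3.26 FPKM in control, 0, 2.66 and 3.8 in LPS, 1.36, 0.55 and 1.48 in bLF, and 2.1, 3.31 and 0.62 in LPS+bLF. No reads were assigned to it in LPS replicate 1, which allows up to 0.124 FPKM (3 counts). Ms4a6c had 108 counts there, and its FPKM was its highest, with the limits of assigned length and shared stretches given above. All 4 groups of Ms4a6b overlapped. The log2 fold change in LPS versus control was −0.19 ± 1.06, and 0.38 ± 0.718 without LPS replicate 1. In LPS+bLF versus LPS it was −0.01 ± 1.06, and −0.58 ± 0.718 without that library. For LPS+bLF versus bLF it was 0.86 ± 1.08 (edgeR adjusted p = 1).

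Ms4a4b, which tunes the activation of T cells, measured 3.09, 7.47 and 7.37 FPKM in control, 0.46, 12.12 and 12.56 in LPS, 5.11, 4.11 and 3.27 in bLF, and 4.54, 9.42 and 2.65 in LPS+bLF. LPS held both the lowest library of all, with 8 counts, and the highest 2. The log2 fold change in LPS versus control was 0.43 ± 0.809, or 0.97 ± 0.517 without LPS replicate 1. Between LPS+bLF and LPS it was −0.50 ± 0.81, or −1.04 ± 0.518. Between LPS+bLF and bLF it was 0.45 ± 0.817 (edgeR adjusted p = 1), and −0.21 without LPS+bLF replicate 2.

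Ms4a4c, whose coding sequence is nearly that of Ms4a4b, measured 3.00, 2.54 and 2.88 FPKM in control, 0, 5.24 and 6.19 in LPS, 2.0, 1.90 and 3.32 in bLF, and 5.26, 5.1 and 2.61 in LPS+bLF. Again no reads were assigned in LPS replicate 1, which allows up to 0.124 FPKM, and the other LPS libraries were above all control libraries. The log2 fold change in LPS versus control was 0.40 ± 0.941, or 0.97 ± 0.341 without LPS replicate 1. The value for LPS+bLF versus LPS was 0.26 ± 0.935, and −0.32 ± 0.341 without that library, a change of sign. That for LPS+bLF versus bLF was 0.85 ± 0.946 (edgeR adjusted p = 1), and the SE was 0.314 without LPS replicate 1, since the fit shares its spread over all groups.

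The copies share few exact stretches of 100 bases, counted over all protein-coding transcripts of each gene. Reads that align to a copy with mismatches are not covered by this measure. Of the 100-base stretches of Ms4a4b transcripts 0.882% also occur in Ms4a4c, and of those of Ms4a4c 1.66% occur in Ms4a4b; Ms4a6b and Ms4a6d share none with another gene. At 50 bases the shared part was larger, at 8.19% for Ms4a4c, 4.19% for Ms4a4b, 11.3% for Ms4a6c, 5.89% for Ms4a6b and 2.69% for Ms4a6d on the same strand, and 0% for Ms4a7, Ms4a4a, Adgre1 and Adgre4. Read length was not given in the sources used here, so values of the 5 genes with shared stretches carry that uncertainty.

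Added up, the 7 Ms4a genes stood at 14.6 to 24.8 FPKM in control, 41.5 to 49.0 in LPS, 13.4 to 21.9 in bLF and 18.4 to 32.4 in LPS+bLF. The LPS libraries, replicate 1 included, lay in a narrow band above all others. What made up the sum differed. Ms4a4a took 50.7% of it in LPS replicate 1 and 3.12% to 13.7% in the other 11 libraries, while Ms4a4b took 0.939% there and 29.2% and 26.0% in the other LPS libraries. The share of Ms4a7 was 6.02% to 7.81% in control, 10.8% to 15.9% in LPS, 6.13% to 8.81% in bLF and 7.87% to 19.6% in LPS+bLF.

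**Figure D2:**
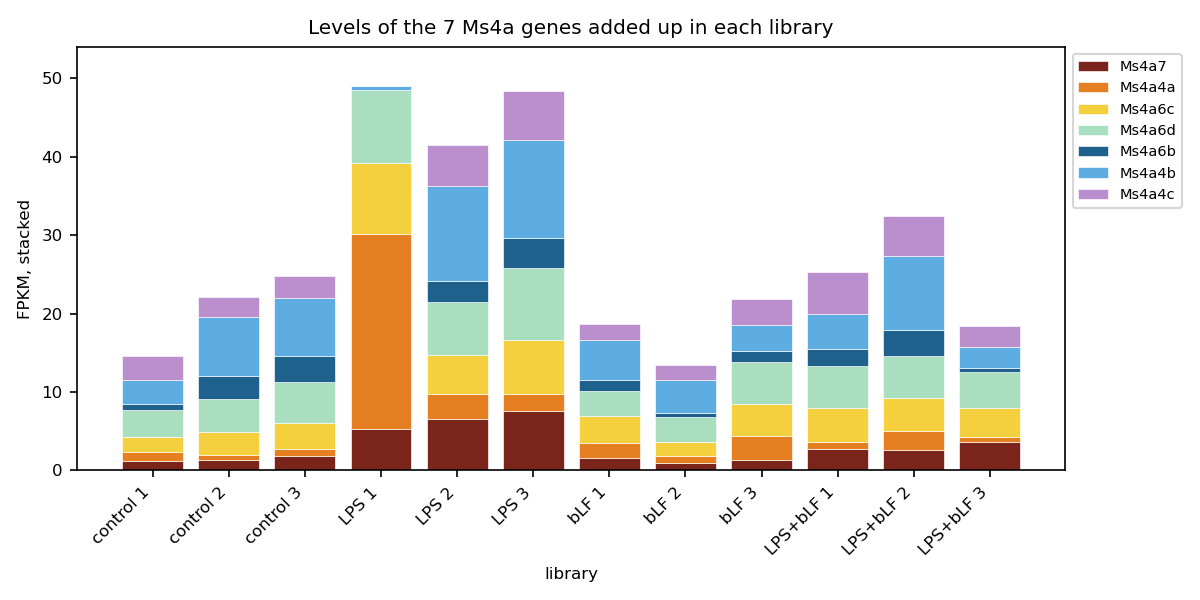
FPKM of the 7 Ms4a genes stacked in each of the 12 libraries (y axis, FPKM from 0); each colour is a gene. The 3 LPS bars reach 41.5 to 49.0 FPKM, and the bar of LPS replicate 1 holds mostly Ms4a4a, with none of Ms4a6b or Ms4a4c.

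Adgre4 was near the limit of detection in lung. It measured 0.07, 0.30 and 0.24 FPKM in control, 0, 0.16 and 0.17 in LPS, 0.09, 0.14 and 0.22 in bLF, and 0.21, 0.16 and 0.12 in LPS+bLF, from 0 to 17 counts. The groups overlapped, and no fold change is given at this depth. The 0 in LPS replicate 1 allows up to 0.0547 FPKM.

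Adgre5 was by far the most abundant of the 10 genes, and its group means ran in another order than those of Adgre1. Pearson's r of log2(FPKM + 1) between Adgre5 and Adgre1 was −0.12 over the 12 libraries and 0.695 after removal of group means. Adgre5 measured 84.78, 213.97 and 179.65 FPKM in control, 56.01, 107.45 and 150.33 in LPS, 103.36, 100.98 and 126.56 in bLF, and 97.69, 62.82 and 65.53 in LPS+bLF. Every LPS+bLF library was below every bLF library, and the other pairs of groups overlapped. Its log2 fold change in LPS+bLF versus bLF was −0.53 ± 0.385, lower in 3 of 3 libraries (edgeR adjusted p = 1). It was −0.63 ± 0.385 in LPS versus control (−0.39 ± 0.392 without LPS replicate 1), −0.45 ± 0.384 in LPS+bLF versus LPS (−0.69 ± 0.384 without it) and −0.55 ± 0.384 in bLF versus control. Of the 100-base stretches of its transcripts 8.6% lie on the opposite strand in transcripts of the gene listed as Ddx39a, an RNA helicase gene, which stood at 13.37 to 22.67 FPKM.

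By mean level, Adgre5 came first and Adgre4 last in every group. Between them the control order was Ms4a4b (5.98 ± 2.5 FPKM, SD, n = 3), Ms4a6d (4.29 ± 0.907), Ms4a4c (2.81 ± 0.239), Ms4a6c (2.72 ± 0.786), Ms4a6b (2.35 ± 1.33), Ms4a7 (1.41 ± 0.323), Adgre1 (1.28 ± 0.464) and Ms4a4a (0.95 ± 0.288). Neighbours in this order from Ms4a4b to Ms4a6d, and from Ms4a4c through Ms4a4a, overlapped within 1 SD; Ms4a6d and Ms4a4c did not. In LPS the order was Ms4a4a (range 2.17 to 24.86), Ms4a6d (8.44 ± 1.47), Ms4a4b (8.38 ± 6.86), Ms4a6c (6.95 ± 1.99), Ms4a7 (6.51 ± 1.15), Adgre1 (4.05 ± 0.969), Ms4a4c (3.81 ± 3.33) and Ms4a6b (2.15 ± 1.95). Here the only neighbours between Adgre5 and Adgre4 whose SD ranges parted were Ms4a7 and Adgre1. In LPS Ms4a4a owed its place to replicate 1 and was 2.62 ± 0.643 FPKM without it. Ms4a4b and Ms4a6d led these 8 genes in bLF (4.16 ± 0.921 and 3.92 ± 1.27) and in LPS+bLF (5.54 ± 3.49 and 5.12 ± 0.469), with SD ranges that overlapped. The last of the 8 were Ms4a7 (1.31 ± 0.351) and Ms4a6b (1.13 ± 0.506) in bLF and Ms4a6b (2.01 ± 1.35) and Ms4a4a (1.33 ± 0.951) in LPS+bLF, again with overlapping ranges.

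Across the genes, LPS versus control gave 5 of 10 whose LPS libraries were all above the control libraries in FPKM (Ms4a7, Ms4a4a, Ms4a6c, Ms4a6d and Adgre1), with 4% of tested genes above in this way and 3.92% below. The choice of genes used this contrast, so nothing is read from the count. edgeR called 0% of all tested genes in it. In LPS+bLF versus LPS, which shares the LPS libraries with it, 4 of 10 were below without overlap (Ms4a7, Ms4a6c, Ms4a6d and Adgre1) and 0 above, against 4.91% and 4.15% of tested genes, and edgeR called 0%. In bLF versus control, which shares the control libraries, 0 of 10 were separated in either direction, against 2.21% above and 5.74% below, and edgeR called 0%. Their log2 fold changes in bLF versus control ran from −1.06 ± 1.08 for Ms4a6b to 1.04 ± 0.975 for Ms4a4a. Between LPS+bLF and bLF, 1 of 10 was above (Ms4a7), against 5.13% of tested genes, and 1 of 10 below (Adgre5), against 6.87%.

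The median log2 fold change of the 9 tested genes was 1.06 in LPS versus control (all tested genes −0.04), −0.67 in LPS+bLF versus LPS (−0.02), −0.11 in bLF versus control (−0.03) and 0.45 in LPS+bLF versus bLF (0.01). Without LPS replicate 1 the first 2 medians were 0.97 and −0.69. In LPS+bLF versus bLF, 7 of the 9 were higher and 2 lower, where 52% of all tested genes were higher. For the difference between both LPS effects (with bLF minus without), the values were largest for Ms4a4a (−4.13 ± 1.37, or −1.90 ± 0.837 without LPS replicate 1), Adgre1 (−1.10 ± 0.417, or −1.15 ± 0.429) and Ms4a7 (−1.04 ± 0.417, or −1.06 ± 0.415), apart from Ms4a6b, whose 1.05 ± 1.51 became 0.48 ± 0.986. This difference holds the contrast used for the choice of genes and is given as a description; edgeR called 0% of all genes for it.

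**Figure D3:**
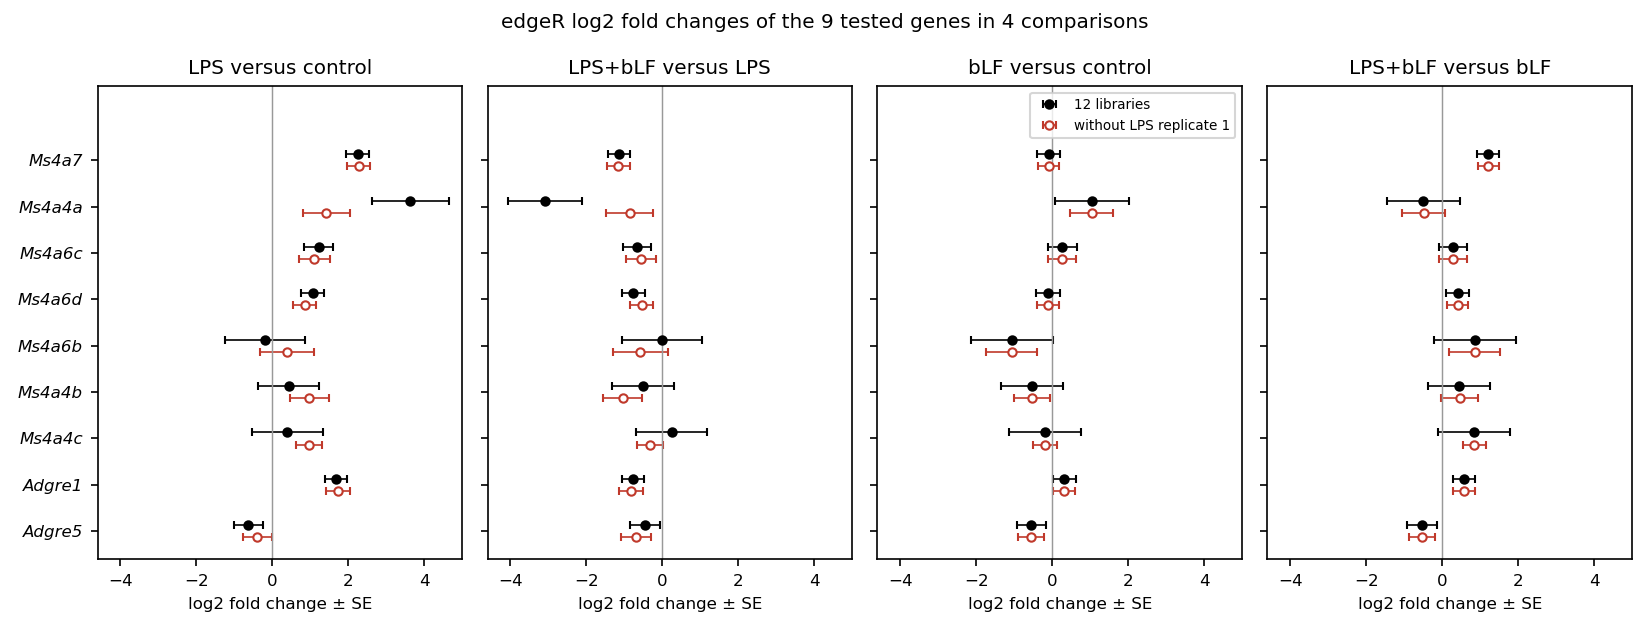
edgeR log2 fold changes (x axis) with SE for the 9 tested genes in 4 comparisons, with all 12 libraries (black) and without LPS replicate 1 (red, open). Ms4a7 and Adgre1 hardly move when that library is left out, whereas Ms4a4a goes from 3.64 to 1.41 in LPS versus control.

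By position in the cluster, in LPS versus control the log2 fold changes from left to right were 2.25 (Ms4a7), 3.64 (Ms4a4a), 0.40 (Ms4a4c), 0.43 (Ms4a4b), 1.22 (Ms4a6c), −0.19 (Ms4a6b) and 1.06 (Ms4a6d). Without LPS replicate 1 they were 2.28, 1.41, 0.97, 0.97, 1.10, 0.38 and 0.85. Among these 7 genes the higher values lay towards Ms4a7, but family genes further left did not continue that order. Ms4a1 (11249679 to 11266149) had −0.73 ± 0.979, and −0.17 ± 0.651 without LPS replicate 1. Ms4a8a (11067471 to 11081103) had 0.72 ± 0.372 and 0.68 ± 0.405. This order was not tested. Ms4a4d, a protein-coding neighbour between Ms4a6b and Ms4a6d that is not among the 10 genes, had −0.06 ± 0.347 and 0.25 ± 0.28. Its value in LPS+bLF versus bLF was −0.30 ± 0.348 (edgeR adjusted p = 1).

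**Figure D4:**
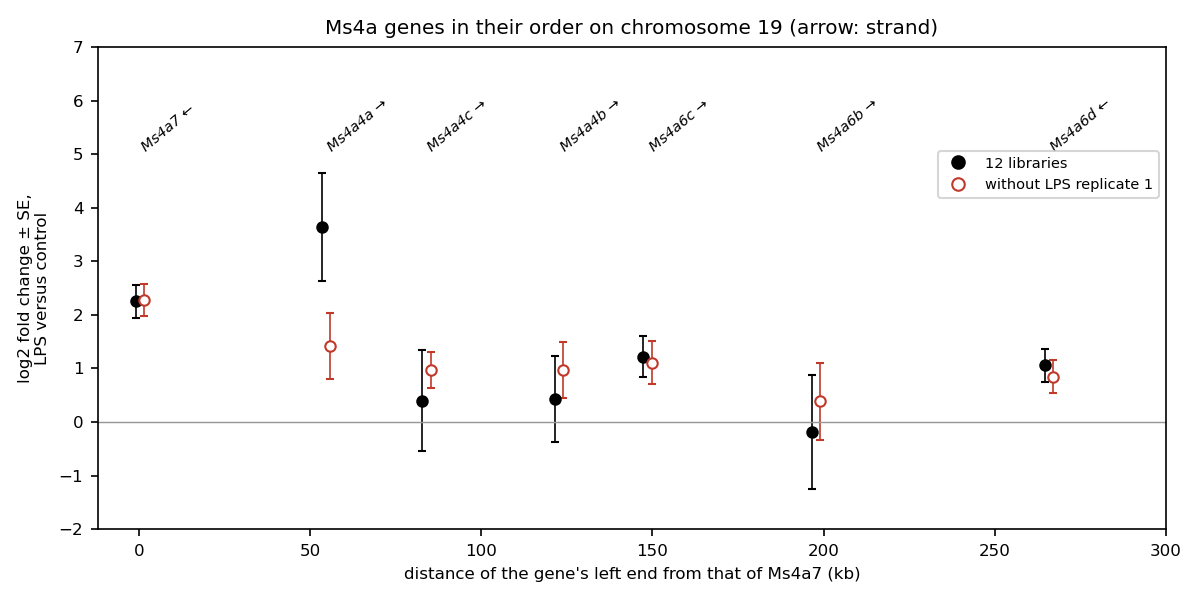
edgeR log2 fold change in LPS versus control with SE (y axis) for the 7 Ms4a genes against the distance of each gene's left end from that of Ms4a7 (x axis, kb); black with all 12 libraries, red without LPS replicate 1. Ms4a7 at the left edge keeps 2.25 and 2.28, and the spread among the 7 genes is narrower in red.

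Across the 12 libraries several of the 10 genes varied together, which is given as a description since the libraries share groups. Pearson's r of log2(FPKM + 1) was 0.925 between Ms4a7 and Adgre1 (Spearman's rho 0.923, r 0.92 without LPS replicate 1) and 0.931 between Ms4a6c and Ms4a6d (rho 0.923, r 0.904 without it). After removal of the group means, r was 0.593 and 0.822. Ms4a6b went with Ms4a4b (r 0.915, 0.864 without LPS replicate 1, 0.927 after removal of group means) and not with its close copy Ms4a6c (r 0.04), although the value for that pair was 0.672 without LPS replicate 1. Ms4a4b and Ms4a4c had r 0.823, and 0.603 without that library. Ms4a4a and Ms4a4c had r −0.61 with it and 0.507 without it. Of these 6 pairs, the last and that of Ms4a6b with Ms4a6c changed most when LPS replicate 1 was left out. Ms4a7 and Adgre1 also went with Ms4a6c (r 0.837 and 0.858) and Ms4a6d (0.852 and 0.842). After removal of group means those values were 0.142 to 0.426. Ms4a4c had r −0.01 with Ms4a6d, 0.223 with Adgre1 and 0.124 with Ms4a7. Without LPS replicate 1 these became 0.865, 0.795 and 0.756. Adgre4, near the limit of detection, had r 0.786 with Adgre5.

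The genes outside the 10 with the most similar pattern were named for 4 of them by a rule on Pearson's r over the 12 libraries, among tested genes with a mean of at least 1 FPKM. For Ms4a7 they were Sh2d1b1 (r 0.943), Fcgr2b (0.931), Myo1f (0.927), Cd200r4 (0.926) and Cd200r1 (0.925). After removal of group means these values were 0.348, 0.617, 0.573, 0.378 and 0.0946. Sh2d1b1 encodes an adaptor of NK cells, Fcgr2b the inhibitory Fc receptor, Myo1f an unconventional myosin of leukocytes, and the Cd200r genes encode receptors of myeloid cells. For Adgre1 they were Fcgr2b (0.972), Myo1f (0.95), Ncf4 (0.947), a subunit of the phagocyte NADPH oxidase, Nckap1l (0.938), a haematopoietic actin regulator, and C1qc (0.925), a complement chain made by macrophages. With group means removed, r was 0.663 to 0.865 for the genes most like Adgre1. Fcgr2b and Myo1f are in both lists of 5.

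For Ms4a6d the most similar were Arpc1b (0.946), Csf2rb (0.945), Chil3 (0.932), Slc15a3 (0.926) and Cd84 (0.91), of which Csf2rb encodes the shared chain of the GM-CSF receptor and Chil3 a chitinase-like protein of alveolar macrophages. For Ms4a4b they were Rasal3 (0.944), Itga4 (0.944), Gga2 (0.942), Arl5c (0.938) and Dock2 (0.928), with r between 0.851 and 0.888 when LPS replicate 1 is left out. Itga4 is an integrin of lymphocytes and monocytes, and Dock2 drives migration of lymphocytes. For Adgre5, looked up after its values were seen, they were Ccrl2 (0.98), Zfp180 (0.973), Tiparp (0.97), Afap1l1 (0.967) and Ogn (0.966), and for Ms4a4a, likewise, the first was Gda (0.956), with r 0.751 without LPS replicate 1.

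**Figure D5:**
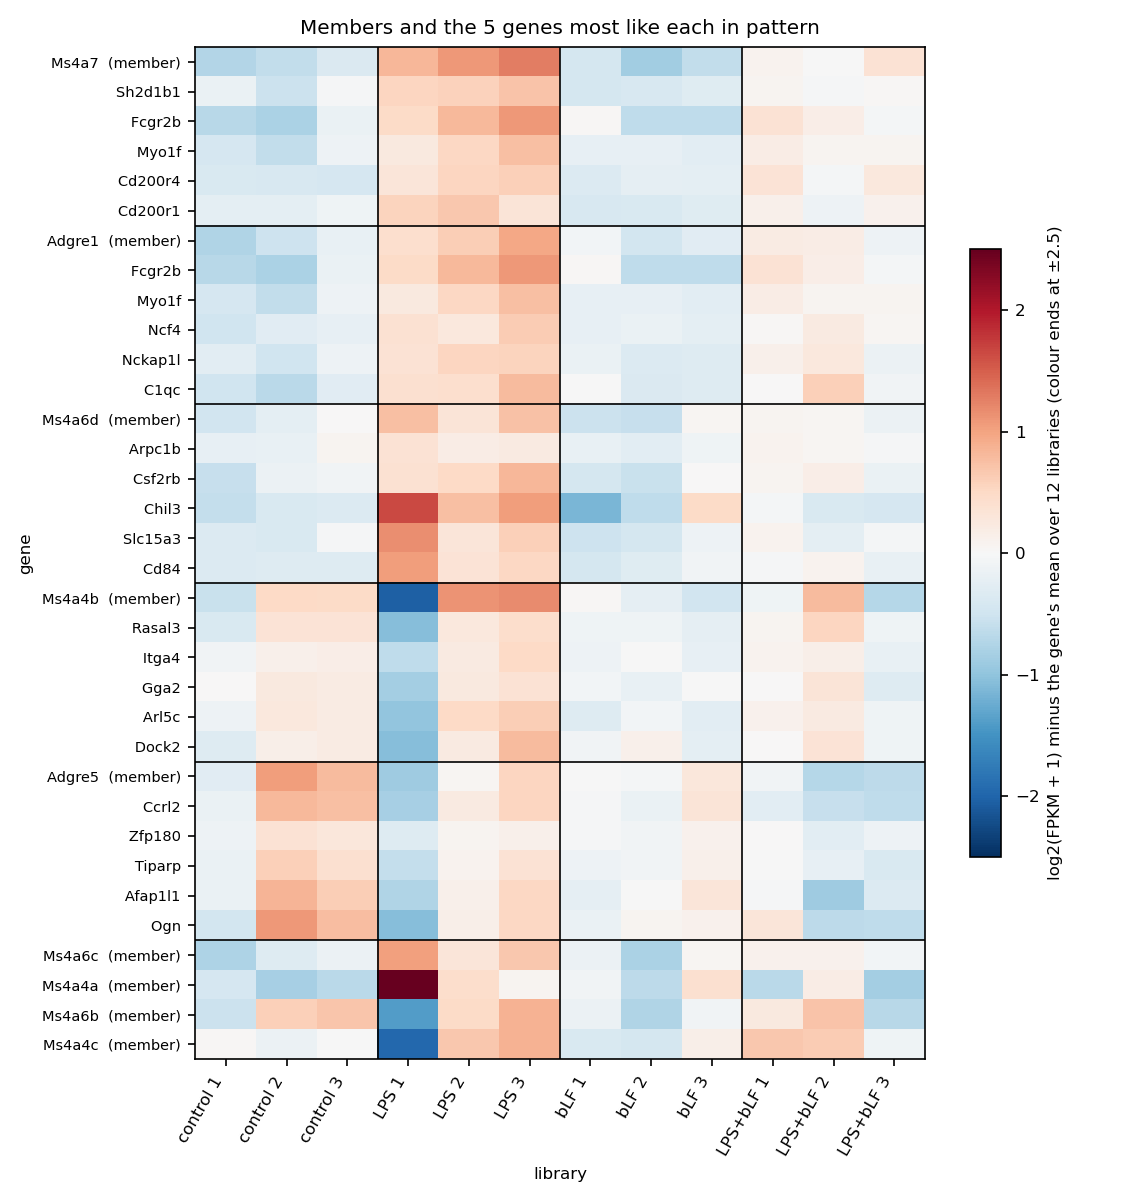
Heatmap of log2(FPKM + 1) minus each gene's mean over the 12 libraries (colour, in log2 units) for 9 of the 10 genes and the 5 most similar genes of Ms4a7, Adgre1, Ms4a6d, Ms4a4b and Adgre5 (rows); columns are libraries, by group. Ms4a7, Adgre1 and Ms4a6d are highest in the 3 LPS columns, as are most of their similar genes (not C1qc and Cd200r4, each with an LPS+bLF library above an LPS library), and the Ms4a4b block is lowest in LPS replicate 1.

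Marker lists of the cell types known to carry these genes are set beside them. Of 20 monocyte and macrophage markers (none of them among the 10 genes), 20 had a positive log2 fold change in LPS versus control, with a median of 1.04, where 45.8% of all tested genes were positive; without LPS replicate 1 it was 18 of 20, with a median of 0.84. The summed level of the list overlapped between groups, at 1058 to 2705 FPKM in control and 855.2 to 3951 in LPS, and none of its markers was listed at 0 in LPS replicate 1. Between LPS+bLF and LPS, 19 of 20 were lower (17 of 20 without LPS replicate 1). Between LPS+bLF and bLF, 13 were higher and 7 lower, with a median of 0.39, and edgeR called 0 of 20. The largest values there were those of Aif1 (1.35 ± 0.453), Cx3cr1 (0.92 ± 0.371) and Ccr2 (0.91 ± 0.301), the last the chemokine receptor of recruited monocytes, each with an edgeR adjusted p of 1. The part of macrophage number in the levels of Ms4a7, Adgre1, Ms4a6c and Ms4a6d was not tested.

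The alveolar macrophage list (12 tested) had 9 higher in LPS versus control and 7 higher in LPS+bLF versus bLF, with a median of 0.06 in the latter, and its summed level was 446.4 to 552.7 FPKM in control and 543 to 728.5 in LPS. The non-classical monocyte list (8 tested, Cx3cr1 shared with the monocyte list) had 6 higher in each of these comparisons. edgeR called 0 genes of either list.

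Lymphocyte lists were summed for comparison with Ms4a4b, Ms4a4c and Ms4a6b. The NK cell and cytotoxic list summed to 129.3 to 159.9 FPKM in control, to 25.62, the value of LPS replicate 1, up to 596.1 in LPS, to 166.4 to 219 in bLF and to 171 to 268 in LPS+bLF. Of its 13 tested genes 12 were higher in LPS versus control, and 13 of 13 without LPS replicate 1. The T cell list summed to 56.52 in LPS replicate 1 and to 139.3 and 139.4 in the other LPS libraries, with 2 of 14 markers at 0 in the former; control had 78.44 to 104.4. So the library in which Ms4a4b had 8 counts and Ms4a4c and Ms4a6b had 0 was also the lowest for T and NK markers, as it was for the monocyte and macrophage list. That library was the highest for the alveolar macrophage (728.5 FPKM) and non-classical monocyte (791.4) lists. The part of lymphocyte number in the levels of Ms4a4b, Ms4a4c and Ms4a6b was not tested.

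In LPS+bLF versus bLF, 11 of 13 T cell markers were higher (median 0.75), 9 of 9 B cell markers (median 1.07), 8 of 13 NK markers (0.20) and 7 of 9 dendritic cell markers (0.65), and edgeR called 0 genes of these lists. The B cell list summed to 229.9 to 584.6 FPKM in LPS+bLF and 76.82 to 203.2 in bLF. Ms4a1, the CD20 gene of the Ms4a family and a member of both the B cell and the family list, had a log2 fold change of 0.90 ± 0.972 (edgeR adjusted p = 1) and, like Ms4a4c, was listed at 0 in LPS replicate 1. Neutrophil markers had 7 of 10 higher and eosinophil markers 2 of 2, with 0 called. Markers of fat, heart, skeletal muscle and squamous tissue varied most, from 4.21 to 2741 FPKM in sum over the groups. They were uneven between the libraries compared here, at 2241, 37.61 and 145.2 FPKM in bLF and 51.54, 2294 and 2741 in LPS+bLF. Their part in these comparisons was not tested.

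Relatives of the 2 families outside the 10 genes were counted in the same way. Of 5 tested other Ms4a relatives, Tmem176a and Tmem176b included, 2 were higher and 3 lower in LPS+bLF versus bLF, with a median of 0.00. In LPS versus control 3 of them were higher and 2 lower. Of 14 tested other adhesion G protein-coupled receptors, 12 were lower in LPS+bLF versus bLF with a median of −0.29, Adgrl2 among them at −0.53 ± 0.313, and 8 were lower in LPS versus control. The known binding partners of Adgre5 had 4 of 6 higher in LPS+bLF versus bLF: Thy1, a surface protein of T cells and fibroblasts, had 0.70 ± 0.298, and Itgb1, an integrin chain, was lower at −0.28 ± 0.147 (edgeR adjusted p = 1 for each). Interferon-stimulated genes had 4 of 11 higher there, and lung epithelium and endothelium markers 1 of 10. edgeR called 0 genes of these 5 lists.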

How the data were processed

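Lung RNA of 12 mice was sequenced, 3 per group. Per the file headers, the deposited files give a count and an FPKM per gene and library. They were treated as RSEM-style expected counts made by the authors, since 4.12% to 5.91% of the counts were not whole. Per the submitters' processing notes, HISAT2 2.1.0, RSEM 1.2.8 and mm10 were used; the annotation, read length and strand setting are not given in the sources used here. Groups and replicate numbers came from the labels.

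Expected counts were rounded. The fit took the 13735 genes that reached 0.5 FPKM in 3 or more libraries, with 4 group means and TMM factors, in edgeR 4.0.16 (R 4.3.3), with 8 residual degrees of freedom and Benjamini-Hochberg adjustment over all tested genes, two-sided, called at 0.05. SE is the log2 fold change divided by the root of the quasi-likelihood F. The biological coefficient of variation common to all genes was 0.352 (0.292 without LPS replicate 1). On simulated counts for LPS+bLF versus bLF (13735 genes), edgeR recovered 12% of genes changed by a true log2 value of 1 and 74% at 2, with 1 false call; DESeq2 1.42.0 recovered 39% and 89% with 35 false calls. Alternatives were DESeq2, limma 3.58.1 on log2(FPKM + 1) and on log2(FPKM + 0.1), a mean of 5 FPKM or more, no filter, upper-quartile factors, only the groups compared, a robust fit, a replicate block and leaving out each library.

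The members, the 15 marker and family lists and the comparisons were chosen with earlier results of these data known. All 10 members are named; for Ms4a7, Adgre1, Ms4a4b and Ms4a6d the 5 genes with the highest Pearson r were named, and for each list up to 3 genes with the largest absolute log2 fold change in LPS+bLF versus bLF at a mean of at least 1 FPKM, of which some are given. Of 17920 gene IDs, 17869 matched the RefSeq table of GRCm38.p6, the source of coordinates and promoter windows. Coding sequences and transcripts came from GENCODE M21 and were aligned with Biopython 1.88; coding identity took the place of the protein identity first planned, and the shared stretches were added after the files were seen.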

Additional observations from a re-analysis of the deposited data

How the results depend on the processing

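With edgeR, 0 genes and 0 members were called in every comparison with all 12 libraries, with a smallest adjusted p over all genes of 0.084 in LPS versus control. DESeq2 called 2 genes in LPS+bLF versus bLF, 7 in LPS+bLF versus LPS, 1 in bLF versus control and 1 for the difference between both LPS effects. In LPS versus control it called 139 of the 13735 tested genes, with 3 members among them (Ms4a7, Ms4a4a and Adgre1). The members were chosen with that contrast in view, so their calls in it, here and below, are a description and not a test. limma on log2(FPKM + 1) called 2 genes in LPS versus control, 1 of them a member (Ms4a7). Leaving out 1 library at a time gave 0 to 25 genes and 0 to 1 members in LPS versus control, with the 25 genes and the 1 member (Ms4a7) without LPS replicate 1, and 0 to 2 genes in LPS+bLF versus LPS, with the 2 also without that library. The cause was not tested. In LPS+bLF versus bLF no alternative called a member. Of 906 member fold changes under the alternatives, 868 kept their sign and 38 did not, 2 of the latter in LPS+bLF versus bLF and 9 in LPS versus control; for Ms4a7 and Adgre1 the sign changed under 2 alternatives, both in bLF versus control. Leaving out 1 library at a time, Ms4a4a in LPS+bLF versus bLF ranged from −1.28 to 0.0166 and Ms4a4b from −0.211 to 0.789. The replicate block called 0 genes in each comparison. The labels number the samples and state no pairing. Of same-numbered pairs of libraries, 7 of 18 had a correlation of deviations over 0.1 (−0.709 to 0.576), against 15 of 36 pairs with different numbers. Deviations from the mean of 3 libraries are tied to each other, so these counts cannot settle whether the numbers mark pairs. Precision was limited by 3 libraries a group and by counts of 0 to 322 for the Ms4a genes; recovery of log2 values under 1 was not simulated.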
